A study of Mus musculus with 8 samples.

Results

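The genes described here are the ion channel genes, taken by symbol from the raw count table of the study. A gene was taken when its symbol begins with Kcn, Cacna, Cacnb, Cacng, or with Scn, Hcn, Clcn, Trpa, Trpc, Trpm or Trpv followed by a digit, and 128 of the 26930 genes of the table met this rule. A further 46 symbols of the reference table met the rule but had no row in the counts and are not analysed here. Of the 128, 122 encode channel pore or accessory subunits and 6 do not: Kcnq1ot1, Kcnab3os, Kcnmb4os2 and Trpc5os are noncoding or opposite-strand transcripts named after a channel gene, Kcnrg encodes a soluble regulator of voltage-gated K+ channels, and Trpc4ap an adaptor protein. The question was how many of these genes were silent, how many were expressed in untreated cells, and how many appeared with the drug.

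RNA was measured in cultures of MDSCs, the myeloid-derived cells that suppress T cell responses in tumours. They were grown from bone marrow of C57BL/6 mice with GM-CSF and IL-6 (40 ng/ml each), and all libraries come from cells moved on day 4 to conditioned medium of TRAMP-C1, a prostate tumour line, and described by the labels as senescent-like. Untreated cells (n = 4) were compared with cells given Romidepsin, an inhibitor of class I histone deacetylases, at 0.5 µM for 6 h (n = 4). The labels name no separate mice or cultures for the replicates, so p-values measure the spread between these libraries, which may be technical. RNA was measured in bulk, where fewer cells of a type cannot be told apart from less RNA per cell.

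Ion channels let ions cross membranes down their gradients. K+ channels keep the membrane potential negative and so sustain the Ca2+ entry that drives leukocyte activation. ClC proteins move chloride across the plasma membrane or, as chloride-proton exchangers, across the membranes of endosomes and lysosomes. TRP channels pass cations in response to heat, oxidants, stretch or lipids. Voltage-gated Na+ and Ca2+ channels and the hyperpolarization-activated HCN pacemaker channels are best known from neurons and muscle.

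Libraries held 12996892 to 23176949 counts. Levels are CPM, counts per 1000000 counts scaled by edgeR's trimmed mean of M-values; log2 fold changes are treated over untreated, and adjusted p-values are from edgeR's quasi-likelihood test with Benjamini-Hochberg adjustment over the 12852 genes tested (threshold 0.05). All 10 myeloid markers had counts, with summed levels of 39380 to 46420 CPM in untreated and 14080 to 33140 CPM in treated libraries. Most of each sum was Lyz2, at 27310 to 37000 CPM untreated and 12170 to 26100 CPM treated. Of the 10 markers 0 passed, and 4 passed as lower with the replicate number as a block. The part of myeloid markers in the channel results was not tested. B cell markers summed to 84.9 to 288 CPM untreated, highest in replicate 2, and to 23.5 to 91.5 CPM treated, and 4 of 6 passed as lower. Megakaryocyte and platelet markers summed to more, 353 to 865 CPM untreated and 353 to 813 CPM treated. Epithelial markers stood at 177 CPM in untreated replicate 1, mostly Cdh1. They were at 4.93 to 6.03 CPM in the other untreated libraries and at 16.2 to 55.9 CPM in treated ones. Endothelial markers summed to 12.5 to 57.9 and 32.3 to 45.8 CPM, and mast cell and basophil markers to 20.5 to 31.7 and 5.91 to 23.8 CPM. T and NK cell markers summed to 4.93 to 29.9 and 2.35 to 6.79 CPM, and erythroid markers stayed under 1 CPM in every library. The library labelled Romidepsin replicate 3 stood apart: across genes, its mean correlation with the untreated libraries (0.934) exceeded that with the other treated libraries (0.910).

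Most ion channel genes were off. A gene was called expressed in a group when at least 3 of the 4 libraries reached 1 CPM. By that bound 87 of the 128 (68.0%) were silent in both groups, 26 (20.3%) were expressed in both, 12 (9.38%) appeared with Romidepsin and 3 (2.34%) were lost. Over all genes of the table the shares were 53.6% silent, 41.5% expressed in both, 2.89% appearing and 2.09% lost. Of the 128, 125 are protein-coding, and over all protein-coding genes the shares were 29.9% silent, 64.3% expressed in both, 3.7% appearing and 2.11% lost. Untreated cells thus expressed 29 channel genes and treated cells 38.

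Of the 99 channel genes not expressed in untreated cells, 12.1% appeared, against 5.12% of all such genes and 11.0% of all such protein-coding genes. The channel share is near that of protein-coding genes, so it is not a result about channels. The 12 that appeared were Cacna1b, Clcn2, Hcn2, Hcn3, Kcnab3, Kcne3, Kcnh2, Kcnh3, Kcnh4, Kcnn1, Kcnrg and Scn3b. The 3 lost were Scn4a, Kcnk12 and Cacnb4. The classes rest on the measured levels and are a description, and several genes lie near the bound. In untreated cells the third-highest library, which decides the call, stood at 0.986 CPM for Cacna1e, 0.967 for Cacna1i and Kcne3, 0.919 for Kcnk5, 0.904 for Cacna1a and 0.870 for Kcnab3, just outside, and at 1.11 for Kcnd1, 1.15 for Kcnk12 and 1.16 for Cacnb4, just inside. In treated cells Kcnh2 at 1.03, Kcnrg at 1.20 and Kcnh4 at 1.36 CPM lay just inside, and Kcnk5 at 0.794 and Cacng8 at 0.746 just outside. With a bound of 0.5 CPM, Hcn2, Hcn3, Kcnab3 and Kcne3 would count as expressed in both groups and leave the class that appeared.

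**Figure D1:**
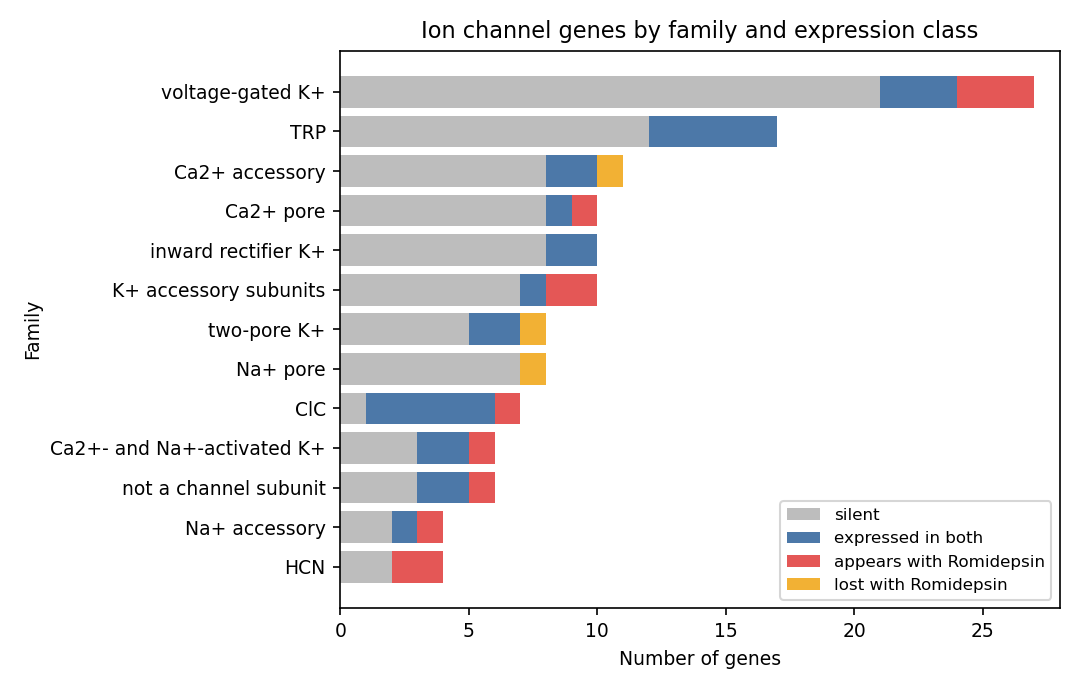
Number of ion channel genes (horizontal axis) in each family (vertical axis), coloured by whether the gene was silent, expressed in both groups, appeared with Romidepsin or was lost with it. In the ClC family 1 of 7 genes was silent, in the HCN family 2 of 4 were silent and 2 appeared, and of the voltage-gated K+ genes 21 of 27 were silent.

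The families differed in how much of them was on. Among the ClC genes 5 of 7 were expressed in both groups, 1 appeared and 1 (Clcn1, the skeletal muscle chloride channel) was silent. Of 17 TRP genes 5 were expressed in both groups and 12 were silent. Of 51 genes for pore-forming K+ channel subunits, 37 were silent, 9 were expressed in both groups, 4 appeared and 1 was lost. Within them the voltage-gated genes (27) included 21 silent and 3 that appeared, and the inward rectifiers (10) included 8 silent and none that appeared. Na+ channel pore genes were silent in 7 of 8 cases, and Ca2+ channel pore genes in 8 of 10. Both expressed HCN genes appeared with the drug, and by the 1 CPM bound no HCN gene was expressed in untreated cells. This depends on the bound, as the third-highest untreated library stood at 0.6285 CPM for Hcn2 and 0.5781 for Hcn3.

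Silent did not mean a count of 0. In all, 33 of the 128 genes had 0 counts in the untreated libraries, and 27 had at most 3 counts over all 8 libraries. For counting error alone, 0 counts in the untreated group allow up to 0.0469 CPM by library size alone. Of the 87 silent genes, 48 had at most 10 counts in all libraries and 62 had more counts in the treated group. The 33 with 0 untreated counts are among these 62 of necessity, as every gene of the table has a count in some library. Treated replicate 2 held counts of 77 of the 87, against 29 to 50 in the other libraries. The same count was not made over all silent genes, so the 62 is no result about channels. Median merged exon length was 4370.5 bp for genes that appeared, 5511 bp for those expressed in both groups and 5428 bp for silent genes.

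Per unit length, the highest channel gene of untreated cells was Clcn7 (ENSMUSG00000036636, chr17:25133391-25162104, plus strand), the lysosomal chloride-proton exchanger, at 46.9 ± 16.1 CPM per kb of exon (SD, n = 4). Next came Trpv2 (ENSMUSG00000018507, chr11:62574486-62600515, plus strand), a cation channel of macrophage membranes, at 35.6 ± 3.94, and Kcnab2 (ENSMUSG00000028931, chr4:152390742-152477871, minus strand), a cytoplasmic beta subunit of Kv1 channels with an oxidoreductase fold, at 23.98 ± 3.67 CPM per kb. Trpc4ap followed at 18.9 ± 2.60, then Kcnn4 (ENSMUSG00000054342, chr7:24370263-24386690, plus strand), the calcium-activated K+ channel KCa3.1 of leukocytes, at 18.8 ± 3.67, and Cacnb3 (ENSMUSG00000003352, chr15:98630840-98644529, plus strand), a cytoplasmic subunit of voltage-gated Ca2+ channels, at 15.5 ± 8.13 CPM per kb. The tandem pore domain K+ channel genes Kcnk13 (THIK-1) and Kcnk6 (TWIK-2), whose products carry background K+ current in microglia and macrophages, had 14.9 ± 3.06 and 14.5 ± 2.11 CPM per kb. Below them lay Clcn4 at 8.48 ± 0.289, Kcnj2 at 8.18 ± 2.73 and Trpm7 at 8.01 ± 2.26 CPM per kb.

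In this order of 29 expressed genes, neighbours overlapped between libraries except that Trpv2 lay above Kcnab2, and Kcnk6 above Clcn4, in every untreated library. The lower end included Kcnd1 at 0.260 ± 0.126, the long Kcnq1ot1 transcript at 0.204 ± 0.116 and Cacnb4 at 0.114 ± 0.0530 CPM per kb. Summed over the 128 genes, the channel level was 1412, 1311, 1503 and 1692 CPM in untreated libraries 1 to 4. The treated libraries held 1036, 1167, 1266 and 1154 CPM, all below the untreated. This separation depended on the scaling: by library size alone the sums were 1201 to 1510 CPM untreated and 1233 to 1389 CPM treated, and the groups overlapped.

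**Figure D2:**
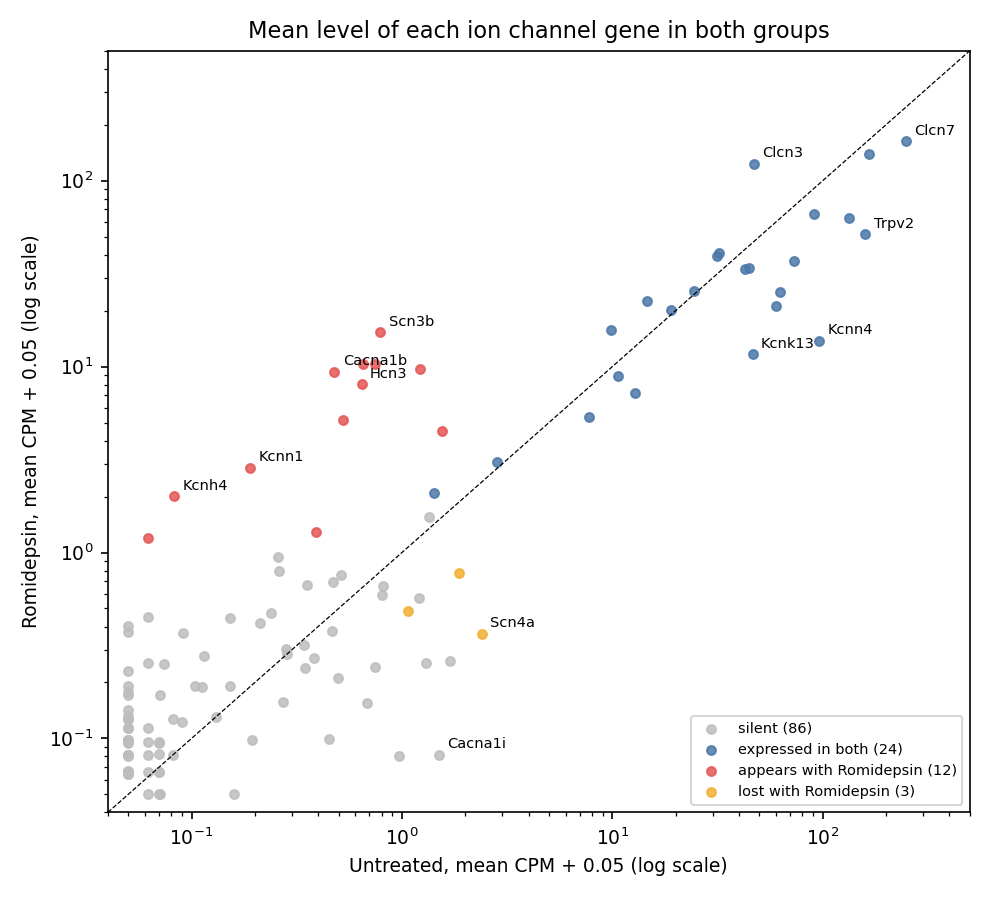
Mean CPM of 125 of the 128 ion channel genes in untreated (horizontal) and Romidepsin-treated (vertical) libraries, n = 4 each, both axes logarithmic after adding 0.05, coloured by class, with the dashed line at equal levels. Genes that appeared lie above the line at the left, Clcn3 lies above it among genes expressed in both groups, and Kcnn4, Kcnk13 and Trpv2 lie below it.

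Of the 128 genes, 44 had enough counts to be tested. Of these, 13 rose and 10 fell, and 21 did not pass. Over all 12852 genes tested, 36.5% passed, 20.3% as higher and 16.2% as lower. The channel shares were 29.5% and 22.7% of those tested. Of the 13 that rose, 10 were of the class that appeared, which is defined by its treated levels. That class made up 10 of the 44 tested channel genes, against 687 of the 12852 genes tested. The share of channel genes that rose is thus a description. Among the 28 tested genes that untreated cells expressed, 3 rose (10.7%) and 8 fell (28.6%), beside 18.3% and 17.7% of all genes expressed in untreated cells. Their median log2 fold change was -0.37, beside -0.05 for all such genes. Scaling the libraries by 20 housekeeping genes gave 14 higher and 6 lower channel genes (70.0% of calls higher, against 56.5%). Over all genes 86.7% of calls were then higher, against 55.7%, and the median of all genes shifted by 0.49 on the log2 scale. Of the 20 housekeeping genes themselves, 3 passed as higher and 4 as lower in the main fit. Actb, the largest of them, fell from a mean of 6517 to 2962 CPM (adjusted p = 0.0235), so this scaling is not a neutral reference. By library, 12 of the tested genes lay above and 12 below the whole untreated range, beside 18.7% and 16.5% of all genes tested.

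**Figure D3:**
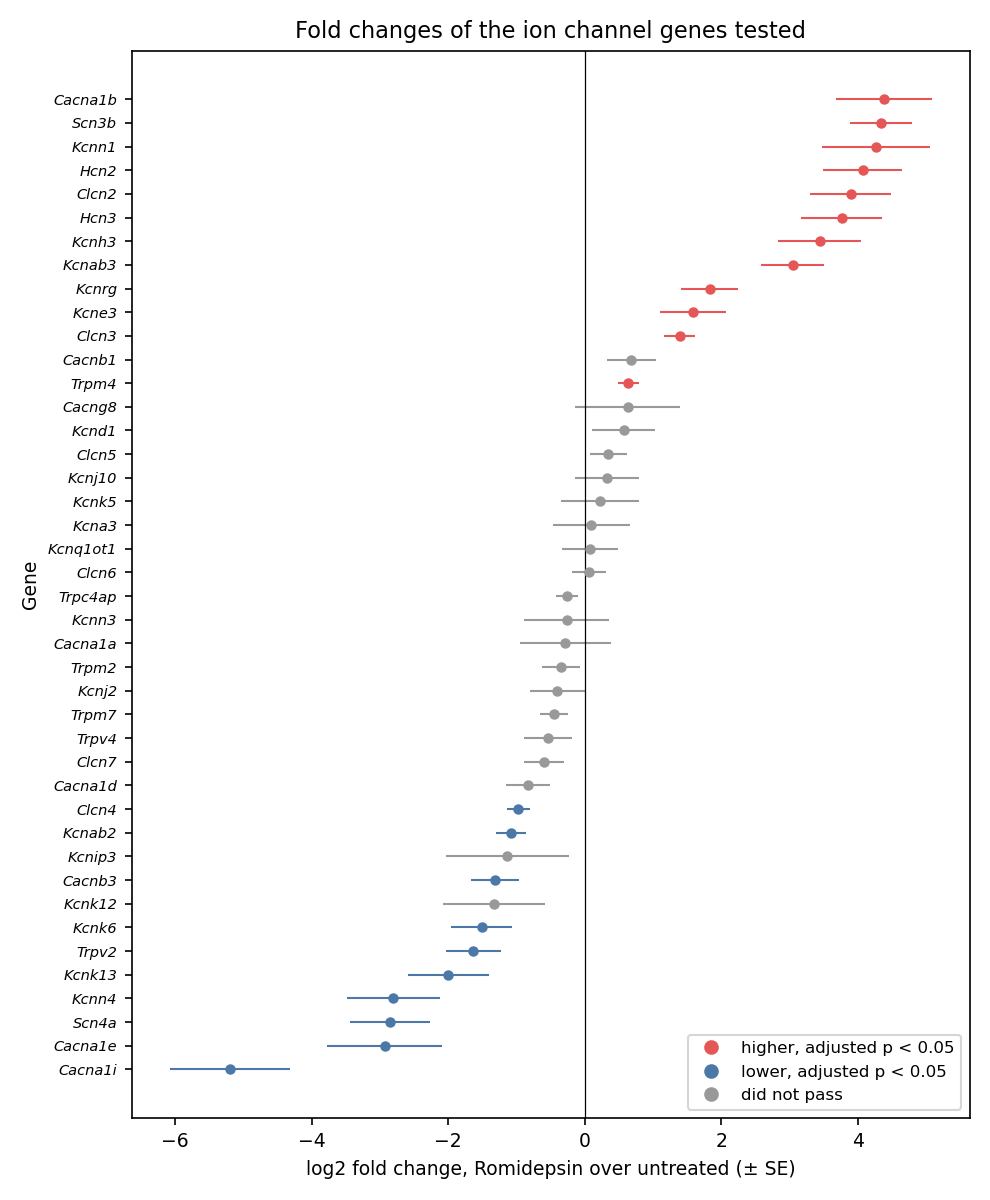
Log2 fold change, Romidepsin over untreated, with its standard error (horizontal axis) for 42 of the 44 ion channel genes tested, ordered by size and coloured by call. Most called genes above 0 lie past 3, whereas called genes below 0 lie mostly between -0.97 and -2.93; the value of Cacna1i rests on 2 counts in the treated libraries and depends on the prior count.

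The 3 pore-forming K+ channel genes with the highest untreated level per length, Kcnn4, Kcnk13 and Kcnk6, all fell. The sequence before the start of Kcnn4 and Kcnk13 is shown because these genes ranked highest among them; each line gives 250 bases upstream of the start, 5′ to 3′ on the gene's strand, from RefSeq on GRCm38.p6, with CpG dinucleotides in capitals (chr7:24370013-24370262 and chr12:99964249-99964498, both plus strand).
Kcnn4: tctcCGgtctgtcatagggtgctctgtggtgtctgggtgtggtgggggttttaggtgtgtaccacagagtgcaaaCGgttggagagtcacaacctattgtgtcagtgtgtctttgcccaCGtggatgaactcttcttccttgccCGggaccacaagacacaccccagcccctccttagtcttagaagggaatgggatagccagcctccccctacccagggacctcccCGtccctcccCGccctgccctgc
Kcnk13: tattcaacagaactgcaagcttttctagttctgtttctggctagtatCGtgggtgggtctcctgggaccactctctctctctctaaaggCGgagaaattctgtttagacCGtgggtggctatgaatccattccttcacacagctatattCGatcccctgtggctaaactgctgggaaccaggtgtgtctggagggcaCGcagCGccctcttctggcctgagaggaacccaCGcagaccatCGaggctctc
The Kcnn4 window held 6 CpG, 58.8% GC and 1 GC box (GGGCGG), and the Kcnk13 window 8 CpG, 52.8% GC and 1 ETS core (GAGGAA) but no GC box. Across all 32851 windows of that length the median was 6 CpG, 32.7% held GGGCGG and 23.3% held GAGGAA on either strand; a GC box contains a CpG.

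In untreated libraries 1 to 4 Kcnn4 was at 116, 76.9, 107 and 83.4 CPM, and in treated libraries 1 to 4 at 4.36, 2.73, 32.8 and 15.1 CPM. All treated libraries lay below all untreated ones, and treated replicate 3 was the highest of them. Kcnn4 fell from 95.9 ± 18.8 to 13.8 ± 13.8 CPM (SD, n = 4), a log2 fold change of -2.80 ± 0.68 (SE; adjusted p = 0.0142). Without treated replicate 3 the change was -3.72, and with no count filter the call was lost (adjusted p 5.67e-05 to 0.0922 over all alternatives).

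Kcnk13 gave 55.7, 33.2, 47.3 and 49.6 CPM in the untreated libraries and 3.84, 3.43, 24.6 and 14.8 CPM in the treated libraries, each in the order 1 to 4. The groups did not overlap, and treated replicates 1 and 2 were far below 3 and 4. The fall of Kcnk13 (ENSMUSG00000045404, chr12:99964499-100062682, plus strand) from 46.5 ± 9.53 to 11.7 ± 10.1 CPM (SD, n = 4) was -1.996 ± 0.59 (SE; adjusted p = 0.0280) on the log2 scale. It no longer passed when untreated replicate 1, 3 or 4 or treated replicate 1 or 4 was left out (adjusted p 0.0516 to 0.0595; 0.00171 to 0.112 over all alternatives), and without treated replicate 3 it was -2.68.

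For Kcnk6, the untreated libraries held 52.4, 52.9, 66.9 and 68.5 CPM and the treated libraries 10.8, 8.51, 41.04 and 24.2 CPM, in order of replicate number. Here too every treated library was below every untreated one and replicate 3 came nearest. Kcnk6 (ENSMUSG00000046410, chr7:29221926-29232515, minus strand) had a log2 fold change of -1.51 ± 0.45 (SE; adjusted p = 0.0289). Its call was lost without untreated replicate 2, 3 or 4 or treated replicate 1 or 4 (adjusted p 0.0517 to 0.0663), with housekeeping scaling and with no count filter (1.99e-05 to 0.0856 over all alternatives).

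Trpv2 stood at 156, 136, 176 and 170.0 CPM in untreated libraries 1 to 4 and at 30.9, 22.04, 95.8 and 57.8 CPM in treated libraries 1 to 4. The groups did not overlap. Trpv2 fell from 159.7 ± 17.7 to 51.6 ± 33.1 CPM (SD, n = 4), a log2 fold change of -1.63 ± 0.41 (SE; adjusted p = 0.0152).

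In untreated libraries 1 to 4 Kcnab2 was at 144, 112, 122 and 157 CPM, and in treated libraries 1 to 4 at 49.2, 48.02, 83.6 and 71.1 CPM. Every treated library was below every untreated one, with replicate 3 again the nearest. The Kcnab2 change was -1.09 ± 0.22 (SE; adjusted p = 0.00693). Its exons overlap those of Gm16334 on the same strand, a gene with no row in the counts.

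Cacnb3 gave 53.7, 110.3, 46.4 and 38.8 CPM in the untreated libraries and 25.3, 35.1, 17.6 and 22.4 CPM in the treated libraries, each in the order 1 to 4. The groups did not overlap, and untreated replicate 2 was the highest. Cacnb3 had a log2 fold change of -1.31 ± 0.35 (SE; adjusted p = 0.0192), and did not pass without treated replicate 4, with library size alone or with housekeeping scaling (adjusted p 5.77e-06 to 0.0982 over all alternatives).

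For Clcn4, the untreated libraries held 70.3, 71.4, 72.99 and 76.05 CPM and the treated libraries 30.3, 31.9, 47.99 and 37.9 CPM, in order of replicate number. These values were the tightest among the fallers in untreated cells, and the groups did not overlap. Clcn4 (ENSMUSG00000000605, chr7:7282309-7300851, minus strand), an endosomal chloride-proton exchanger, fell from 72.7 ± 2.48 to 37.02 ± 8.0 CPM (SD, n = 4), a log2 fold change of -0.97 ± 0.17 (SE; adjusted p = 0.00394). Kcnab2 and Clcn4 missed the threshold with housekeeping scaling (adjusted p = 0.0538 and 0.0531, the highest over all alternatives of each).

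Among genes of low level, Scn4a (ENSMUSG00000001027, chr11:106318592-106353288, minus strand), the Na+ channel pore of skeletal muscle, was lost. Scn4a had 30, 40, 35 and 17 counts in untreated libraries 1 to 4 and 3, 10, 3 and 4 in the treated ones. In CPM this was 2.40, 3.30, 2.88 and 0.822 against 0.172, 0.635, 0.199 and 0.259, with no overlap, and a log2 fold change of -2.85 ± 0.58 (SE; adjusted p = 0.00735). A pair of Ca2+ channel pore genes, chosen after their values were seen, also fell without reaching the bound in untreated cells. Cacna1e, the R-type channel, had 10, 40, 12 and 30 counts untreated and 0, 4, 1 and 8 treated (adjusted p = 0.0246), and its call was lost without untreated replicate 2 or treated replicate 2 (adjusted p = 0.0675 and 0.0515). Leaving out treated replicate 4 moved its log2 fold change from -2.93 to -3.86. Cacna1i, a T-type channel, had 10, 33, 16 and 20 counts untreated and 0, 2, 0 and 0 treated (adjusted p = 0.0036), and all its treated counts came from replicate 2. Untreated replicate 2 was the highest library in 4 of the 10 genes that fell, and it also held the most B cell marker RNA, at 288 CPM against 84.9 to 164 CPM in the other untreated libraries; the part of B cells in these results was not tested. Kcnk12, a THIK-1 relative, had 9, 37, 14 and 49 counts untreated and 2, 4, 21 and 18 treated and did not pass (adjusted p = 0.181). Cacnb4, a Ca2+ channel subunit, had 4, 14, 16 and 27 and 9, 5, 5 and 9 counts and was not tested.

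Some genes that untreated cells hardly used rose. They are described here because their treated levels were high, so that they rose is no separate result. Of the 6 silent genes tested, 0 rose and 2 fell. For Hcn2 and Cacna1b, which were under 1 CPM in all untreated libraries and well above it in all treated ones, the 250 bases before the start are shown in the same form (chr10:79716384-79716633, plus strand; chr2:24763153-24763402, minus strand).
Hcn2: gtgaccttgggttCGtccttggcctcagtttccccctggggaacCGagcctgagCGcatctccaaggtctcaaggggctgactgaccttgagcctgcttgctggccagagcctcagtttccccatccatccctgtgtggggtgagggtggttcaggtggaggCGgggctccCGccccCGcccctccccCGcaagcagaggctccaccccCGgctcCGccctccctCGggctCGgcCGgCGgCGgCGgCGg
Cacna1b: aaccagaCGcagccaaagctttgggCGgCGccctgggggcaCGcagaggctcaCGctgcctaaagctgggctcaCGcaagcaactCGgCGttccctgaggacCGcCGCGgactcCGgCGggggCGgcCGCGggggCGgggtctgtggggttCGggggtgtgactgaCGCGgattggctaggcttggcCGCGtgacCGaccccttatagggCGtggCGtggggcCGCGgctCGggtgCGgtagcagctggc
The Hcn2 window held 16 CpG and the Cacna1b window 29, beside the median of 6, with 70.4% and 72.0% GC and 3 GC boxes each. Of all windows, 76.5% held no more CpG than that of Hcn2 and 94.1% no more than that of Cacna1b. Hcn3 and Kcnh3 were also under 1 CPM in all untreated libraries and above it in all treated ones. The windows shown are thus examples and do not stand for the genes that rose or fell. None of the 4 windows shown held TATAAA, which 12.4% of all windows held on either strand. A comparison of promoters by class was void, because only 95 of the 128 genes (74.2%, under the 80% needed) had a window.

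Scn3b stood at 0.400, 0.413, 1.23 and 0.919 CPM in untreated libraries 1 to 4 and at 14.97, 23.2, 10.4 and 12.6 CPM in treated libraries 1 to 4. The treated libraries were all above 10 CPM and the untreated at or under 1.23. Scn3b (ENSMUSG00000049281, chr9:40269217-40291618, plus strand), an accessory beta subunit of Na+ channels, had a log2 fold change of 4.34 ± 0.45 (SE; adjusted p = 7.82e-04).

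In untreated libraries 1 to 4 Hcn2 was at 0.639, 0.495, 0.657 and 0.628 CPM, and in treated libraries 1 to 4 at 15.7, 16.96, 3.84 and 4.66 CPM. Treated replicates 1 and 2 were higher than 3 and 4, and the groups did not overlap. Hcn2 (ENSMUSG00000020331, chr10:79716634-79736108, plus strand) rose from 0.605 ± 0.0741 to 10.3 ± 6.99 CPM (SD, n = 4), a log2 fold change of 4.07 ± 0.58 (SE; adjusted p = 0.00206). Its relative Hcn3 (ENSMUSG00000028051, chr3:89146074-89160196, minus strand) was at 0.720, 0.578, 0.740 and 0.338 CPM in the untreated libraries and at 9.81, 13.02, 1.99 and 7.18 CPM in the treated ones, again without overlap, and rose by 3.76 ± 0.59 (SE; adjusted p = 0.00273). Hcn4 was silent.

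Cacna1b gave 0.0799, 0.578, 0.329 and 0.725 CPM in the untreated libraries and 12.4, 16.6, 3.71 and 4.66 CPM in the treated libraries, each in the order 1 to 4. Groups did not overlap, and Cacna1b (ENSMUSG00000004113, chr2:24603887-24763152, minus strand), the N-type channel pore that triggers transmitter release at synapses, had a log2 fold change of 4.38 ± 0.70 (SE; adjusted p = 0.00283).

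For Clcn2, the untreated libraries held 0.879, 1.07, 0.329 and 0.483 CPM and the treated libraries 12.5, 16.8, 3.04 and 8.61 CPM, in order of replicate number. Each treated library was above each untreated one. The rise of Clcn2 (ENSMUSG00000022843, chr16:20702964-20717746, minus strand), a chloride channel of the plasma membrane, was 3.89 ± 0.60 (SE; adjusted p = 0.00250) on the log2 scale. Its exons overlap Fam131a on the opposite strand, which rose from 8.21 ± 2.41 to 23.6 ± 4.51 CPM (SD, n = 4; log2 1.52, adjusted p = 0.0035), and without the strand setting reads of these genes cannot be told apart.

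Kcnab3 stood at 1.60, 1.57, 0.657 and 0.870 CPM in untreated libraries 1 to 4 and at 15.3, 10.99, 5.10 and 7.25 CPM in treated libraries 1 to 4. The groups did not overlap. Kcnab3 (ENSMUSG00000018470, chr11:69326258-69333042, plus strand), a Kv1 beta subunit like Kcnab2, rose by 3.04 ± 0.46 (SE; adjusted p = 0.00240), while Kcnab2 fell. The third gene of this kind, Kcnab1, was silent.

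In untreated libraries 1 to 4 Kcnh3 was at 0.320, 0.743, 0.493 and 0.338 CPM, and in treated libraries 1 to 4 at 6.65, 9.08, 1.59 and 3.17 CPM. Treated replicate 3 was the lowest treated library and still above the untreated ones. Kcnh3 (ENSMUSG00000037579, chr15:99224861-99242817, plus strand), a voltage-gated K+ channel of the ELK group, rose by 3.44 ± 0.61 (SE; adjusted p = 0.00426). Its opposite-strand neighbour Mcrs1, with overlapping exons, went from 20.9 ± 2.10 to 6.10 ± 2.31 CPM (SD, n = 4) and fell (log2 -1.77, adjusted p = 0.00426).

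Kcnn1 gave 0, 0.248, 0.164 and 0.145 CPM in the untreated libraries and 3.50, 5.14, 0.728 and 1.88 CPM in the treated libraries, each in the order 1 to 4. As counts these were 0, 3, 2 and 3 untreated and 61, 81, 11 and 29 treated, with no overlap. Kcnn1 (ENSMUSG00000002908, chr8:70842049-70863258, minus strand), a small-conductance calcium-activated K+ channel, rose by 4.26 ± 0.79 (SE; adjusted p = 0.00512), opposite in direction to Kcnn4 of the same family. The third expressed gene of the family, Kcnn3, did not pass (adjusted p = 0.757).

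For Kcne3, the untreated libraries held 3.04, 0.826, 1.15 and 0.967 CPM and the treated libraries 3.73, 2.86, 6.16 and 5.18 CPM, in order of replicate number. Untreated replicate 1 overlapped the treated range, and the treated library was the higher one in all 4 pairs of equal number. Kcne3 (ENSMUSG00000035165, chr7:100176502-100184869, plus strand), a single-pass subunit that partners KCNQ1, had a log2 fold change of 1.58 ± 0.48 (SE; adjusted p = 0.0311). The call was lost without untreated replicate 2, 3 or 4 or treated replicate 1 or 4 (adjusted p 0.0532 to 0.0841; 0.00195 to 0.107 over all alternatives), and the change was 2.18 without untreated replicate 1.

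The remaining genes that appeared were chosen after their values were seen. Kcnrg was at 0.320, 0.330, 0.329 and 0.387 CPM untreated and 1.20, 0.635, 1.26 and 1.88 CPM treated, and rose by 1.83 ± 0.42 (SE; adjusted p = 0.0110). Kcnh2, the hERG K+ channel of the heart, had 0, 0, 0 and 1 counts untreated and 23, 33, 2 and 16 treated, with few in treated replicate 3. Kcnh4, of the same ELK group as Kcnh3, had 0, 0, 1 and 1 and 35, 61, 9 and 21 counts. Both were removed by the count filter; with no filter they passed as higher (adjusted p = 0.00124 and 3.49e-04 in edgeR over 26930 genes). Without the filter 17 channel genes rose and 10 fell, beside 9.4% and 6.27% of all genes. The 10 tested genes of this class all rose, as did 64.3% of the 687 tested genes of the class in the whole table; the class is defined by the same levels, so this count is a description.

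Beside these rises, neuron markers were low: Rbfox3, Snap25 and Nefl were at or under 0.0635 CPM in every library. Stmn2 was at 0 except for 0.699 CPM in treated replicate 2. Map2 was at 0, 0, 0.0822 and 0 CPM in untreated libraries 1 to 4. In treated libraries 1 to 4 it was at 0.344, 1.40, 0.0662 and 0.259 CPM, and it was not tested. Syp carried most of the list, at 1.01 to 2.06 CPM untreated and 1.59 to 3.90 CPM treated, and did not pass (adjusted p = 0.121).

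**Figure D4:**
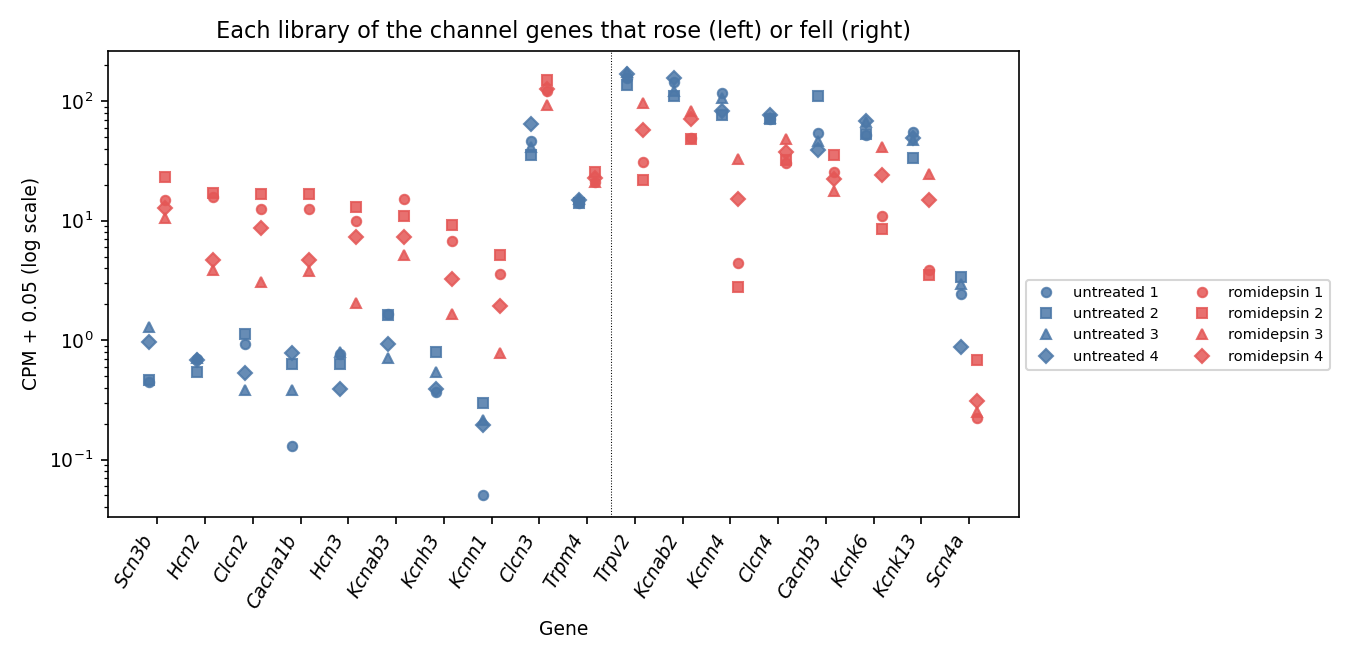
CPM plus 0.05 on a log axis for each library (symbols by replicate number, colours by group) of 10 ion channel genes that rose and 8 that fell. The groups do not overlap for any gene shown, and treated replicate 3 (triangle) is the treated library nearest to the untreated ones in most of them.

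Of the 29 genes expressed in untreated cells, 3 rose, Clcn3 and Trpm4 among them, and Cacnb1 also passed with housekeeping scaling. Clcn3 stood at 46.9, 35.4, 41.2 and 64.9 CPM in untreated libraries 1 to 4 and at 123, 151, 92.5 and 128 CPM in treated libraries 1 to 4. The lowest treated library, replicate 3, was above the highest untreated one. Clcn3 (ENSMUSG00000004319, chr8:60910389-60983300, minus strand), an endosomal chloride-proton exchanger, rose from 47.1 ± 12.8 to 124 ± 24.2 CPM (SD, n = 4), a log2 fold change of 1.39 ± 0.23 (SE; adjusted p = 0.00309). Its close relative Clcn4 fell in the same libraries. For Trpm4, a calcium-activated cation channel that depolarizes the membrane, the untreated libraries held 14.2, 14.04, 15.04 and 14.99 CPM and the treated ones 21.1, 25.6, 21.2 and 22.6. These ranges were narrow and did not overlap, and Trpm4 (ENSMUSG00000038260, chr7:45302632-45333780, minus strand) rose by 0.64 ± 0.15 (SE; adjusted p = 0.0131). Trpm4 missed the threshold with no count filter (adjusted p 9.30e-04 to 0.0667 over all alternatives).

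The other named members did not pass. In untreated libraries 1 to 4 Clcn7 was at 164, 186, 315 and 328 CPM, and in treated libraries 1 to 4 at 127, 128, 220.5 and 178 CPM. Clcn7 was lower in the treated library of each of the 4 pairs of equal number, with a log2 difference of -0.60 ± 0.29 (SE; adjusted p = 0.128); with the replicate number as a block, its adjusted p was 0.0372 (0.0372 to 0.712 over all alternatives). Trpm7 gave 75.9, 78.3, 79.6 and 129 CPM in the untreated libraries and 52.99, 71.3, 71.4 and 70.4 CPM in the treated libraries, each in the order 1 to 4. The groups of Trpm7, a channel fused to a kinase that carries magnesium and zinc, did not overlap, at -0.45 ± 0.21 (SE; adjusted p = 0.116). For Kcnj2, the untreated libraries held 63.8, 29.98, 36.2 and 48.1 CPM and the treated libraries 18.9, 17.4, 49.1 and 49.7 CPM, in order of replicate number. These ranges overlapped, and Kcnj2, the inward rectifier of resting macrophages, differed by -0.40 ± 0.40 (SE; adjusted p = 0.443).

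Trpm2 stood at 52.2, 47.4, 30.2 and 40.4 CPM in untreated libraries 1 to 4 and at 27.8, 20.4, 47.3 and 38.4 CPM in treated libraries 1 to 4. Trpm2, opened by ADP-ribose and oxidants, differed by -0.35 ± 0.28 (SE; adjusted p = 0.338), with overlap. In untreated libraries 1 to 4 Kcna3 was at 2.72, 1.73, 1.73 and 4.98 CPM, and in treated libraries 1 to 4 at 0.975, 1.91, 5.43 and 3.75 CPM. Kcna3, the Kv1 channel of activated lymphocytes, differed by 0.10 ± 0.57 (SE; adjusted p = 0.903), and its sign changed with several settings. Clcn5 gave 27.98, 20.98, 26.9 and 52.6 CPM in the untreated libraries and 36.4, 44.97, 41.2 and 40.7 CPM in the treated libraries, each in the order 1 to 4. The difference of Clcn5, another endosomal exchanger, was 0.34 ± 0.27 (SE; adjusted p = 0.331), and without untreated replicate 4 it was 0.69 and passed (adjusted p = 0.0179; 0.0179 to 0.603 over all alternatives).

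For Trpc4ap, the untreated libraries held 156, 149, 158 and 199 CPM and the treated libraries 146, 148, 137 and 123 CPM, in order of replicate number. Trpc4ap differed by -0.26 ± 0.16 (SE; adjusted p = 0.211). The signs of Kcnj2, Trpm2, Trpm7 and Trpc4ap turned with housekeeping scaling, and that of Trpc4ap also with library size alone. Kcnq1ot1, the long noncoding RNA that silences imprinted neighbours in cis, ranged from 8.61 to 32.1 CPM untreated and from 13.2 to 28.3 CPM treated, with a difference of 0.08 ± 0.41 (SE; adjusted p = 0.891). With the block, 14 channel genes rose and 11 fell, beside 21.2% and 20.8% of all genes.

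The treated libraries differed in how far they moved. Treated replicate 3 was the treated library nearest to the untreated group in 10 of the 13 genes that rose and in 6 of the 10 that fell. The nearest library was not counted over all genes. For Hcn3 it stood at 1.99 CPM where the other treated libraries held 7.18 to 13.02 CPM, and for Kcnn4 at 32.8 CPM where they held 2.73 to 15.1. With treated replicate 3 left out, all 13 higher and 10 lower calls were kept and 2 more genes, Cacna1d and Trpv4, passed as lower. Over all genes the same fit gave 3146 higher and 3010 lower, against 2610 and 2080 in the main fit. The gain is thus not particular to channel genes.

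Counting genes by library gave a further view. At 1 CPM or more, 31, 39, 32 and 31 channel genes were detected in untreated libraries 1 to 4 and 37, 40, 39 and 42 in treated libraries 1 to 4. Untreated replicate 2 overlapped the treated range. With any count at all the numbers were 78, 74, 69 and 81 untreated and 91, 118, 76 and 84 treated. Treated replicate 2 thus held counts of 77 of the 87 silent genes, where the other libraries held 29 to 50, and after thinning every library to 12996892 counts it still held 76. It alone detected 14 of the channel genes, against 0 to 2 in each other library, and it alone detected 1709 of all genes, against 259 to 647. The same library had the highest summed stromal marker level, at 170.0 CPM against 4.32 to 52.7 CPM in the others; the part of other cell types in these trace counts was not tested.

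**Figure D5:**
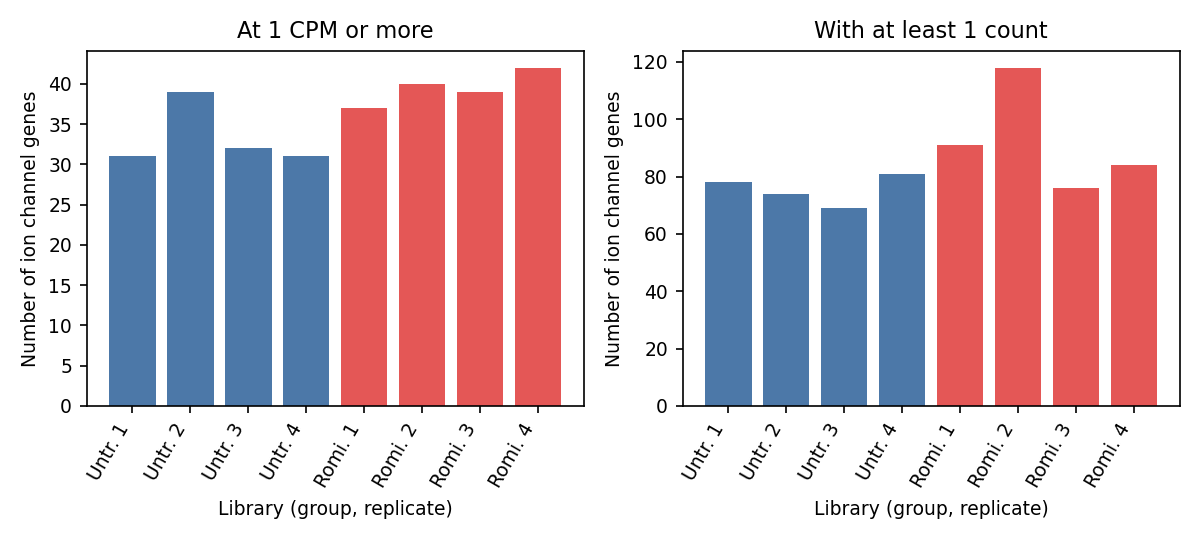
Number of ion channel genes at 1 CPM or more (left) and with at least 1 count (right) in each library, untreated in blue and Romidepsin-treated in red. Treated libraries hold 37 to 42 genes at 1 CPM and untreated 31 to 39, and treated replicate 2 stands out on the right with 118 genes.

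Channels and ion transporters that the symbol rule does not take were read from a list of 81 genes. Of these, 78 had a row, 62 were tested, 10 rose (16.1% of those tested), 12 fell (19.4%) and 40 did not pass, beside 20.3% and 16.2% of all genes tested. With library size alone the counts were 17 higher and 7 lower, and with housekeeping scaling 21 and 4, so that 70.8% and 84.0% of the calls were higher, beside 74.0% and 86.7% of the calls over all genes. The voltage-gated proton channel gene Hvcn1, which carries the proton current of the phagocyte oxidative burst, was at 188, 172, 181 and 209.8 CPM untreated and 25.5, 30.7, 102 and 72.3 CPM treated and fell by 1.71 ± 0.41 (SE; adjusted p = 0.0132) on the log2 scale. The ATP-gated channel P2rx7, through which extracellular ATP drives K+ efflux and inflammasome assembly, was at 54.7, 85.1, 95.8 and 119.8 CPM untreated and 12.4, 15.6, 48.5 and 22.6 CPM treated. P2rx7 had no overlap between groups and a log2 fold change of -1.84 ± 0.43 (SE; adjusted p = 0.0120).

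Store-operated Ca2+ entry, in which STIM sensors of the endoplasmic reticulum open ORAI channels, had genes that moved in both directions. Stim2 rose from 40.9 ± 4.16 to 75.7 ± 10.2 CPM (SD, n = 4), a log2 fold change of 0.89 ± 0.15 (SE; adjusted p = 0.00364), and Stim1 did not pass at 0.67 ± 0.26 (SE; adjusted p = 0.0651). Orai2 fell from 46.9 ± 8.43 to 22.1 ± 7.16 CPM (SD, n = 4), a change of -1.09 ± 0.24 (SE; adjusted p = 0.0100), and Orai1 did not pass at -0.22 ± 0.16 (SE; adjusted p = 0.314). With housekeeping scaling the calls of Orai2 and Itpr2 were lost, Stim1 passed as higher and the sign of Orai1 turned. The inositol trisphosphate receptor gene Itpr2, which releases stored Ca2+, fell from 44.4 ± 3.19 to 23.3 ± 4.10 CPM (SD, n = 4), a log2 fold change of -0.93 ± 0.17 (SE; adjusted p = 0.00426). The plasma membrane Ca2+ pump gene Atp2b4 rose from 7.51 ± 2.29 to 28.8 ± 2.38 CPM (SD, n = 4), a log2 fold change of 1.93 ± 0.25 (SE; adjusted p = 0.00162), with all treated libraries above 26 CPM and all untreated under 10. Tmem63b, an osmosensitive cation channel, rose from 35.7 ± 1.51 to 62.5 ± 2.56 CPM (SD, n = 4), a log2 fold change of 0.81 ± 0.12 (SE; adjusted p = 0.00237). Scnn1a, a subunit of the epithelial Na+ channel, fell from 6.33 ± 2.04 to 2.09 ± 0.747 CPM (SD, n = 4), a log2 fold change of -1.59 ± 0.37 (SE; adjusted p = 0.0114). The stretch-activated channel Piezo1 went from 163 ± 60.9 to 119 ± 33.4 CPM (SD, n = 4) and did not pass, at -0.45 ± 0.29 (SE; adjusted p = 0.239).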

How the data were processed

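RNA was sequenced from 4 untreated and 4 Romidepsin-treated libraries. The deposited values are raw counts per Ensembl gene made by the authors; the submitters' processing notes name STAR 2.5.2a, FastQC, DESeq2 and the GRCm38 (mm10) build. How reads were counted, with which annotation and strand setting, is not given in the sources used, so reads of overlapping genes (4 members on the same strand, 36 on the opposite) and of near-identical copies are uncertain. Symbols matched 26881 of 26930 identifiers. Coordinates and exon lengths are GENCODE on GRCm38.

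Counts were analysed with edgeR 4.0.16 (R 4.3.3): filterByExpr, TMM, two-sided quasi-likelihood test, Benjamini-Hochberg adjustment, tested on simulated data. Alternatives used limma 3.58.1 (voom), DESeq2 1.42.0, other scalings, filters and left-out libraries. The main test and the fits with 1 library left out were unpaired and did not use replicate numbers. A fit with the replicate number as a block was an alternative. That the numbers pair libraries was taken from the data alone, as no label says so. Same-numbered deviations correlated at 0.525, 0.270, 0.457 and 0.171, against at most 0.0467 between numbers.

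At this depth, 1 CPM rests on few counts. Members and lists were chosen with earlier results of these data known. Named genes were the 10 highest and 10 lowest changes among called members averaging at least 1 CPM, the 6 highest untreated levels per length, up to 8 genes that appeared, 14 fixed members and, of the other channels, up to 3 called per direction and 5 fixed genes; others were chosen after their values were seen. Some genes are not reported here.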

Additional observations from a re-analysis of the deposited data

Results flagged for a closer look

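Over 86 groups of 4 libraries, 8 had an extreme library by Dixon's test; chance flags about 1 in 20 groups. Untreated replicate 1 stood apart for Kcne3, at 3.04 CPM against 0.826 to 1.15 CPM in the other untreated libraries. Untreated replicate 4 stood above the others for Trpc4ap (199 CPM), Trpm7 (129 CPM) and Piezo1 (254 CPM), and treated replicate 1 below the others for Trpm7 (53.0 CPM). Untreated replicate 2 had 39 channel genes at 1 CPM, against 31 or 32 in the other untreated libraries. Of channel genes detected in a single library, untreated replicate 3 had 0 and each other untreated library 1, and treated replicate 2 had 14 against 0 to 2 in the other treated libraries.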

How the results depend on the processing

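Of 39 single genes with a test, under 18 alternatives each, 644 of 702 values kept direction and side of the threshold, 31 lost the call, 8 gained it and 19 changed sign, all 19 in genes that did not pass. With the replicate block 14 channel genes rose and 11 fell, keeping all 13 and 10 calls. Over all genes, library size alone gave 3886 higher and 1368 lower, and housekeeping scaling 5061 and 778, with medians shifted by 0.30 and 0.49. Channel genes lower numbered 6 with housekeeping scaling. The other channels gave 17 higher and 7 lower with library size alone and 21 and 4 with housekeeping scaling. Signs turned for Trpc4ap (0.047 with library size alone, 0.221 with housekeeping scaling), Orai1 (0.064 and 0.279 likewise), Kcnj2, Trpm2 and Trpm7 (0.082, 0.136 and 0.012 with housekeeping scaling), Kcnq1ot1 (-0.299 without both replicates 3, -0.166 to 0.458 with 1 library left out) and Kcna3 (-0.02 with the block, -0.126 with limma-voom, -0.523 without both replicates 3, -0.047 with the block and no count filter, -0.368 to 0.545 with 1 library left out). The causes were not tested. The replicate block without a count filter, added after seeing the data, gave 20 higher and 16 lower channel genes. Leaving out 1 library at a time gave 1716 to 3146 higher and 1183 to 3010 lower over all genes, 12 to 13 higher and 7 to 12 lower channel genes, and 6 to 17 lower other channels. Genes lost with Romidepsin numbered 8 at 0.5 CPM, 1 at 2 CPM, 7 by the group mean, 1 with all 4 libraries required, 1 with housekeeping scaling, 5 after thinning, and 2 to 7 with 1 library left out.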
